A study of Caenorhabditis elegans with 12 samples.

Results

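The question addressed was which transcripts of Caenorhabditis elegans changed from day 0 to day 5 of adulthood by a different amount in mir-71 mutants than in the wild type. All 12 poly(A) RNA libraries of the series entered, because the comparison uses each of its 4 groups of 3 libraries. The groups were N2, the laboratory wild type, at day 0 and at day 5, and a strain with the n4115 allele of mir-71, which deletes that microRNA gene, at the same 2 ages. Whole animals of all groups were kept at 20 °C and were put on plates with 0.1 mg/mL 5-fluorodeoxyuridine, which blocks DNA synthesis, around the molt to adulthood. Effects of age and of longer exposure to the drug therefore cannot be told apart, nor can the n4115 allele and any other variant carried by that strain. For each gene the log2 change from day 0 to day 5 in N2 was subtracted from the log2 change in the mutants. A positive difference means a larger rise or a smaller fall in the mutants, and a negative one the reverse. In whole animals fewer cells of a type and less RNA per cell cannot be told apart.

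A microRNA lowers the stability and translation of messenger RNAs that pair with its seed. mir-71 is known from earlier work for promoting long life in adult worms, in part through the insulin pathway. In that pathway insulin-like peptides act on the receptor DAF-2, and when DAF-2 is less active the transcription factor DAF-16 enters the nucleus. There it raises genes such as the metallothionein mtl-1 and lowers the insulin-like peptide gene ins-7, which acts on the same receptor.

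The libraries held 20.5 to 65.2 M counts (M for mega), and levels below are counts per M (CPM) after scaling. 3 counts amounted to 0.045 to 0.157 CPM. No count fell on mir-71 itself (WBGene00003299, on the minus strand of chromosome I from 9379927 to 9380020 in WBcel235), but poly(A) libraries do not measure mature microRNAs, so this does not check the labels. Its host gene ppfr-1, a phosphatase regulatory subunit gene with mir-71 in an intron, was higher in the mutants at both ages and was called with age in neither genotype, with a difference between the age changes of 0.29 ± 0.27 (adjusted p = 0.666). Some day 0 libraries stood apart within their groups. The summed level of 29 major sperm protein genes at day 0 was 1170, 2670 and 1970 CPM in replicates 1, 2 and 3 of N2 and 1000, 2430 and 1370 CPM in the mutants. That of 21 pharynx genes was 699, 1370 and 1160 and 590, 1460 and 703 CPM. The lower values were those of replicate 1 in both genotypes and, for the mutants, also replicate 3. The part of this spread in the results was not tested, and counts without these 3 libraries are given below.

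The metallothionein gene mtl-1 rose steeply in N2 from day 0 to day 5 and far less in the mutants, and the hexosaminidase gene hex-1 rose in N2 and fell in the mutants. The insulin-like peptide gene ins-7, the antimicrobial peptide genes nlp-34 and cnc-6 and the ion exchanger gene nhx-6 rose more in the mutants. The tyrosine aminotransferase gene tatn-1 fell in N2 and rose in the mutants. Of 16764 genes tested, 93 (0.555%) passed the test of the difference between the age changes, by the quasi-likelihood test of edgeR with p adjusted after Benjamini and Hochberg and a threshold of 0.05. In 76 the change was higher in the mutants (0.453% of all tested) and in 17 it was lower (0.101%). The median difference over all genes was 0.06. At an unadjusted p below 0.05 there were 2391 genes, 1549 higher and 842 lower. Other tests called more genes, 350 higher (2.09%) and 195 lower (1.16%) by DESeq2, 130 (0.775%) and 43 (0.257%) by limma on log2 CPM and 114 (0.68%) and 48 (0.286%) by limma on the authors' rlog values. Same-numbered day 0 libraries of the 2 genotypes deviated together from their group means over genes, with correlations of 0.76, 0.66 and 0.28 for replicates 1, 2 and 3. A fit with the replicate number as a term among the day 0 libraries, added after these correlations were seen, called 649 genes higher (3.87%) and 162 lower (0.966%), with all 93 among them. It is called the day 0 block below. Counts in gene lists by these other tests stand against their own shares of all genes, given here. The number called also depended on single libraries. Without N2 day 5 replicate 1 or replicate 3 the total was 10, and each time all 10 were among the 93. Without N2 day 0 replicate 3 it was 16, and without mutant day 5 replicate 1 it was 20, again all among the 93. Leaving out mutant day 0 replicate 2 gave 460 calls that included all 93. With each other library left out, between 25 and 76 of the 93 kept their call, 65, 34 and 40 without N2 day 0 replicates 1 and 2 and N2 day 5 replicate 2, 43 and 25 without mutant day 0 replicates 1 and 3, and 31 and 76 without mutant day 5 replicates 2 and 3. Without the 3 day 0 libraries named above there were 16 calls, 9 of them among the 93. No gene of the 93 changed direction in any of these fits, and the highest adjusted p of any of them with 1 library left out was 0.164. The 9 genes called whichever single library was left out were hex-1, ins-7, mtl-1, nhx-6, str-163, pqn-36, clec-82, F42G10.1 and K11H12.6.

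**Figure D1:**
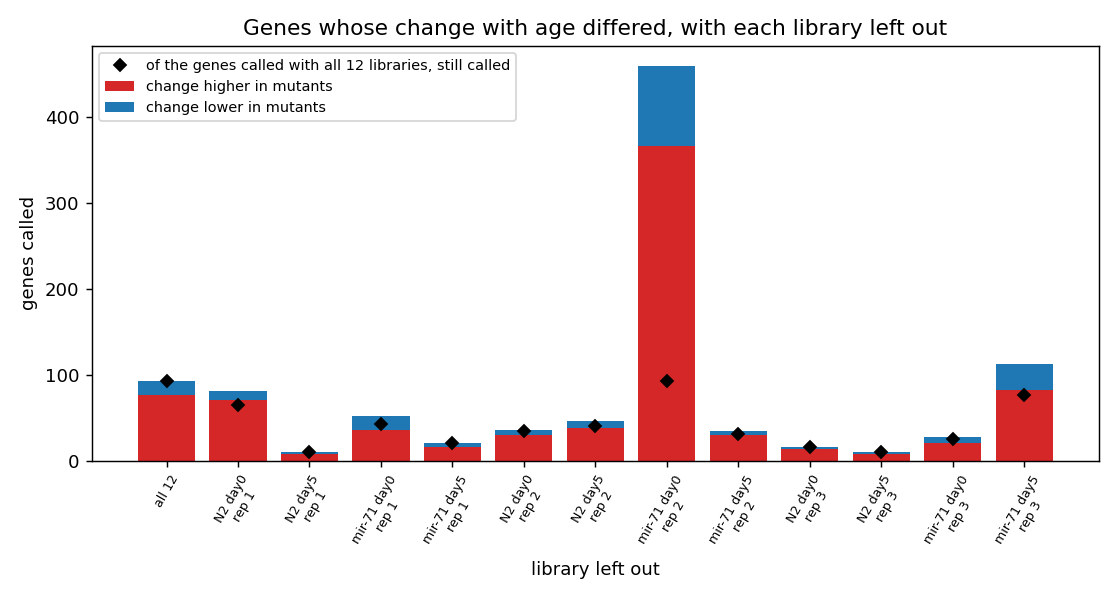
Number of genes whose change with age differed between the genotypes (bars, red for a higher and blue for a lower change in mutants) with all 12 libraries and with each left out in turn. Diamonds count the genes of the 93 that were still called. The totals ran from 10 without N2 day 5 replicate 1 or 3 to 460 without mutant day 0 replicate 2.

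Each of the 93 genes had also passed the test for age in at least 1 genotype. In N2 3998 genes rose (23.8%) and 4731 fell (28.2%), and in the mutants 4175 rose (24.9%) and 4588 fell (27.4%). Among the 93, 26 rose in the mutants with no call in N2, 15 fell in N2 with no call in the mutants, 4 fell in the mutants alone and 3 rose in N2 alone. A further 14 moved in opposite directions, 10 of them falling in N2 and rising in the mutants and 4 the reverse. Both genotypes rose in 24 and fell in 7, by unequal amounts.

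Calls in 1 genotype alone were far more numerous than calls of a difference. Of 1194 genes that rose in the mutants and were not called in N2, 26 (2.18%) passed the test of the difference, and of 1032 that rose in N2 and were not called in the mutants, 3 (0.291%) did. The numbers were 15 of 1027 (1.46%) for falls called in N2 alone and 4 of 899 (0.445%) for falls called in the mutants alone. Of the 25 genes that fell in N2 and rose in the mutants the difference was called in 10 (40%), and of the 10 with the reverse pattern in 4 (40%).

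**Figure D2:**
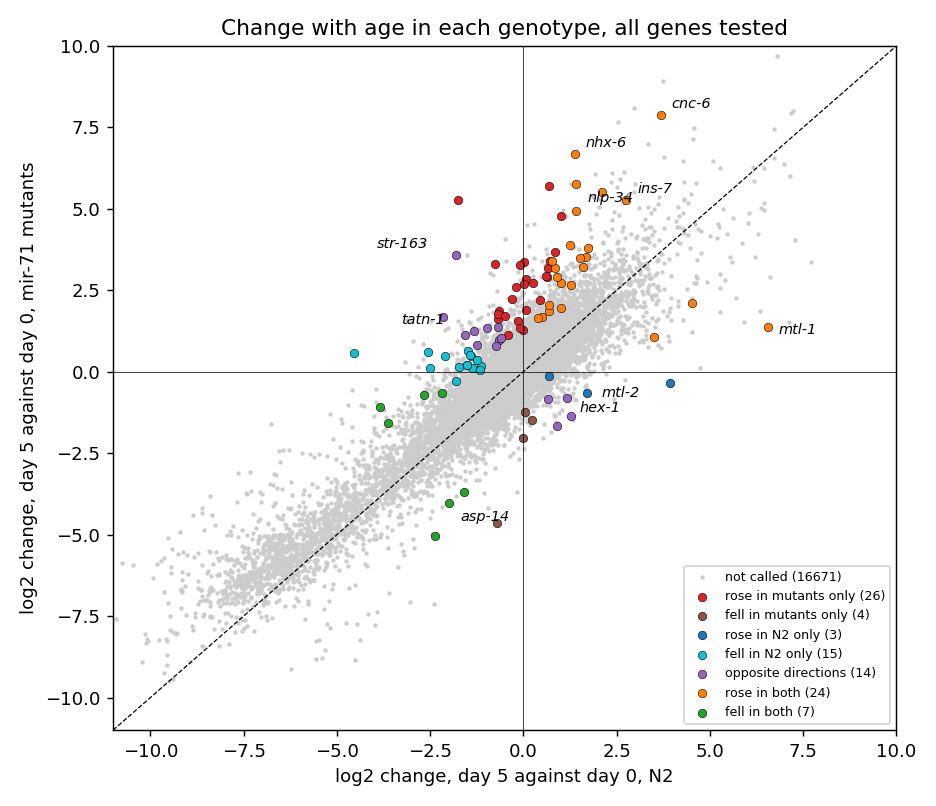
log2 change from day 0 to day 5 in N2 (horizontal) and in mir-71 mutants (vertical) for the 16764 genes tested, 1 point per gene. The 93 genes whose changes differed are coloured by class, and 76 of them lie on the upper side of the dashed line of equal change.

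The levels behind the 93 differences are described next, and since these values chose the genes, nothing is read from the counts. The median absolute log2 difference between mutants and N2 over the 93 was 0.25 at day 0 and 2.32 at day 5. At day 5 the genotypes differed by the test in 92 of the 93, against 10.7% of all genes tested, and at day 0 in 1, against 0.131%. The mutant and N2 libraries did not overlap at day 5 in 92 of the 93, always in the direction of the difference, against 38.4% of all genes tested. At day 0 they did not overlap in 23, against 9.32% of all. The exception, chosen after its values were seen, was the noncoding RNA Y53F4B.45 (chromosome II). It had 57.4, 66.5 and 58.6 CPM in N2 and 23.4, 16 and 16.1 CPM in the mutants at day 0, and 31.3, 44.8 and 39.5 and 32.3, 39.5 and 37.8 CPM at day 5. Here the groups were apart at day 0 and overlapped at day 5. It overlaps the gene trip-4, and with the libraries' strand not known here its reads may be shared.

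**Figure D3:**
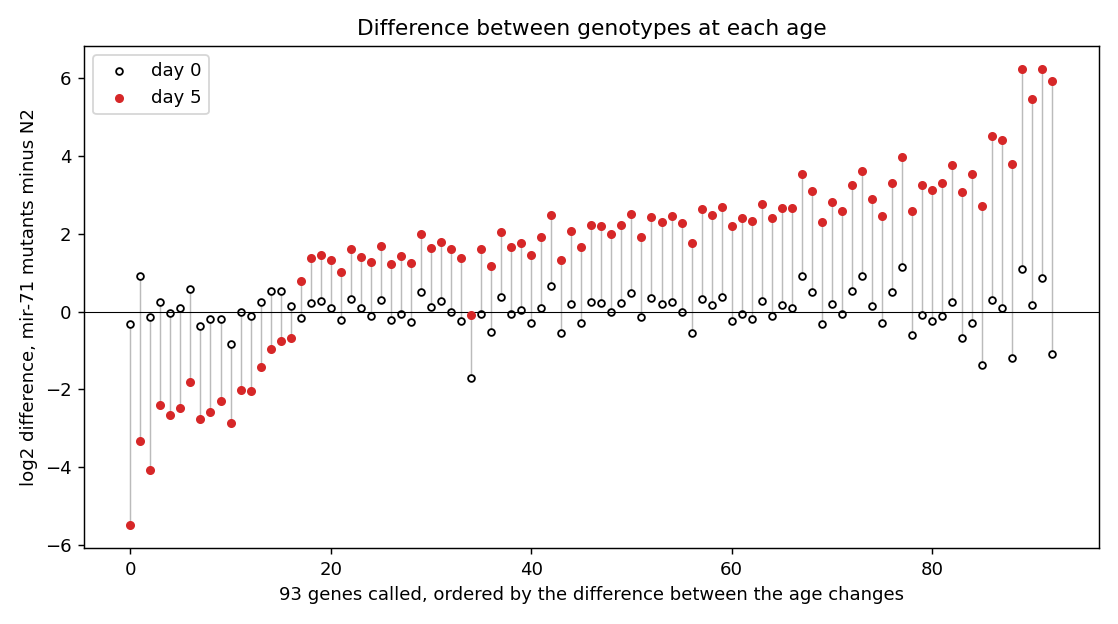
log2 difference between mir-71 mutants and N2 at day 0 (open) and day 5 (red) for the 93 genes called, ordered by the difference between the age changes. The red points lie farther from 0 than the open ones in 92 of 93 genes.

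Among genes of the insulin pathway, 3 genes of ligands passed the test and no gene of the core did by edgeR, a contrast that was not itself tested. Of 31 tested insulin-like peptide genes, 3 were called higher and 0 lower, against 0.453% and 0.101% of all genes, and the list's median difference was 0.34. DESeq2 called 2 of them and the day 0 block 3. ins-7 (WBGene00002090, chromosome IV, 9682011 to 9682845) stood at 2.95, 3.1 and 3.17 CPM in N2 and 3.93, 2.67 and 4.65 CPM in the mutants at day 0. At day 5 it reached 21.1, 24.7 and 16.5 CPM in N2 and 132, 163 and 134 CPM in the mutants. The groups overlapped at day 0, and at day 5 every mutant library lay far above every N2 library. ins-7 rose in both genotypes, by a log2 of 2.76 ± 0.21 in N2 and 5.27 ± 0.23 in the mutants, and the difference was 2.52 ± 0.29 (adjusted p = 0.00517). It was also called without the 3 day 0 libraries (difference 2.98, adjusted p = 0.025).

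ins-4, another insulin-like peptide gene (chromosome II), showed no call in N2 and rose in the mutants. Its levels were 2.59, 2.71 and 1.68 CPM at day 0 and 2.17, 3.34 and 1.78 CPM at day 5 in N2. In the mutants they were 1.78, 2.26 and 1.61 and 15.3, 17.5 and 8.04 CPM. Each mutant library at day 5 exceeded all other libraries, and the difference was 2.76 ± 0.48 (adjusted p = 0.0285). The call was lost in 9 of the 12 fits with 1 library left out, where the adjusted p reached 0.0991.

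ins-8 lies 1070 bases from ins-7 on chromosome IV and was close to absent outside the mutants at day 5. Its counts summed over 3 libraries were 9 and 2 in N2 at day 0 and day 5, and 5 and 219 in the mutants. The mutant libraries at day 5 held 1.25, 1.72 and 1.3 CPM. The fitted difference for ins-8 (7.02 ± 1.38, adjusted p = 0.0488) depends on the prior count used for libraries at or near 0 and is no measure of size. daf-28, an insulin-like peptide that acts on DAF-2, did not pass, with a difference of 0.93 ± 0.41 (adjusted p = 0.331).

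The receptor daf-2 had a difference of -0.13 ± 0.33 (adjusted p = 0.895), the PI3-kinase gene age-1 -0.28 ± 0.24 (0.637) and daf-16 0.09 ± 0.22 (0.893). None of the 15 tested genes of the pathway's core passed in either direction by edgeR, while 1 had an unadjusted p below 0.05 and DESeq2 and the day 0 block called 1 each, as higher. Over all genes DESeq2 called 2.09% higher and the day 0 block 3.87%. Transcript levels of daf-16 do not report where its protein was.

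The most negative difference of the 93 was that of mtl-1. Metallothionein genes such as mtl-1 and mtl-2 encode small metal-binding proteins and are classical DAF-16 targets. mtl-1 (WBGene00003473, chromosome V, 6691371 to 6691863) had 0.336, 0.954 and 0.658 CPM in N2 at day 0 and 66.5, 53.2 and 67.7 CPM at day 5. Mutant libraries had 0.579, 0.315 and 0.805 CPM at day 0 and 1.42, 0.995 and 1.76 CPM at day 5. The N2 libraries at day 5 were apart from all others, which lay below 2 CPM. The rise was a log2 of 6.56 ± 0.41 in N2 and 1.38 ± 0.38 in the mutants, a difference of -5.18 ± 0.54 (adjusted p = 0.00501). It kept its call in all 12 fits with 1 library left out and without the 3 day 0 libraries (adjusted p = 0.025). mtl-1 was also the 1 call by edgeR among 23 tested intestine genes, against 0.101% of all genes called lower. Of that list DESeq2 called 2 higher and 3 lower, limma 1 and 3 on either log2 CPM or rlog values, and the day 0 block 5 and 3. The list's median difference was 0.28. Its summed level at day 5 was 5110, 5170 and 4950 CPM in N2 and 4990, 5590 and 7680 CPM in the mutants.

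mtl-2 started from a higher level and was called in N2 alone. It went from 31.5, 25 and 18.3 to 104, 73.3 and 67.9 CPM in N2 (log2 1.71 ± 0.31, adjusted p = 0.00062). The mutants had 31.8, 18.7 and 14.2 CPM at day 0 and 18, 11 and 12 CPM at day 5 (log2 -0.66 ± 0.31, adjusted p = 0.0871). The mutant libraries at day 0 and day 5 overlapped, while those of N2 did not. The difference was -2.37 ± 0.44 (adjusted p = 0.0366) and was lost in 8 of the 12 fits with 1 library left out, with an adjusted p of up to 0.1.

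The list of DAF-16 induced genes, taken from published work, was described by its counts. Of 24 tested members, 0 were called higher and 2 lower, both metallothioneins, against 0.453% and 0.101% of all genes, and the median difference was -0.11. DESeq2 and the day 0 block called 4 lower each and none higher. The closest to a call among the rest was dod-6 with -1.07 ± 0.25 (adjusted p = 0.0851). lys-7, a lysozyme gene, rose by 5.28 in N2 and 6.25 in the mutants, and its difference of 0.97 did not pass (adjusted p = 0.387). A list of genes that DAF-16 represses, which does not include the called gene ins-7, had 14 tested members. None of these passed in either direction by edgeR, and 3 were higher and 1 lower at an unadjusted p below 0.05. DESeq2 called 1 in each direction, the day 0 block called 3 higher and 1 lower, and the median difference was 0.32.

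**Figure D4:**
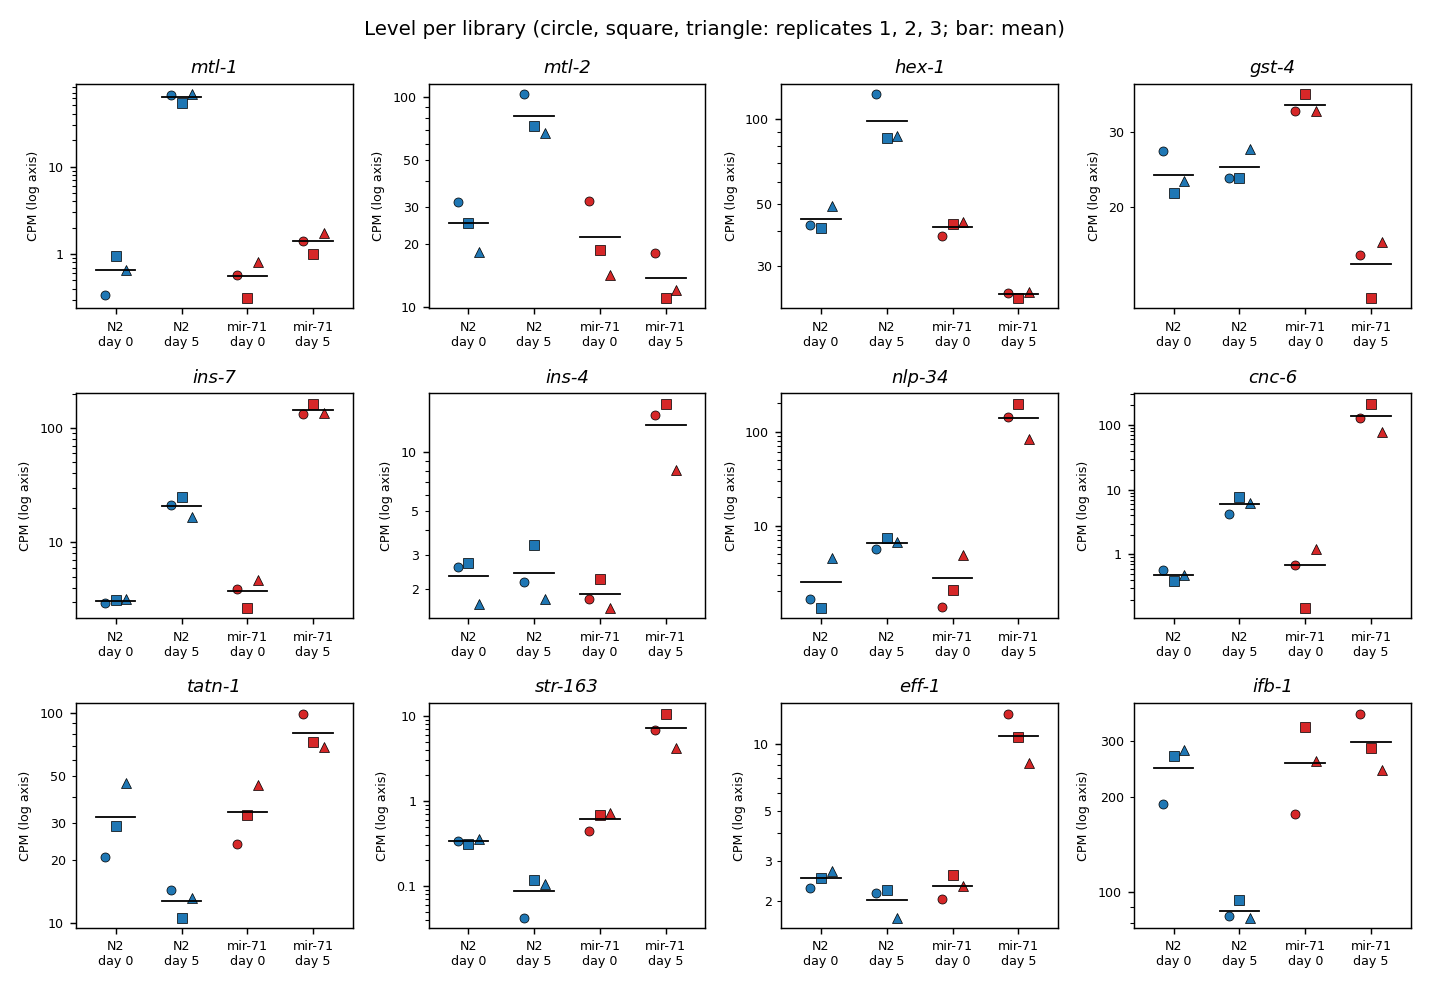
Level of 12 genes in each library, in CPM on a log axis, for N2 (blue) and mir-71 mutants (red) at day 0 and day 5. Circles, squares and triangles are replicates 1, 2 and 3 and bars are means. At day 5 the 3 mutant libraries lie below those of N2 for mtl-1, mtl-2, hex-1 and gst-4 and above them for the other 8 genes.

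Genes that moved in opposite directions included enzymes and a chemoreceptor. hex-1 (WBGene00020509, chromosome X, 2221150 to 2226620) encodes a lysosomal beta-hexosaminidase. Its level was 42.2, 41.1 and 49.3 CPM in N2 and 38.4, 42.5 and 43.1 CPM in the mutants at day 0. By day 5 it was 123, 85.4 and 87.2 CPM in N2 and 24.1, 23.2 and 24.4 CPM in the mutants. All N2 libraries rose above, and all mutant libraries dropped below, the range of the day 0 libraries. The change was 1.16 ± 0.15 in N2 and -0.79 ± 0.15 in the mutants, and the difference of -1.95 ± 0.21 (adjusted p = 0.00501) was called in every alternative tried. The other called genes that rose in N2 and fell in the mutants were C02F12.5, F30A10.13 and F23F12.12, outside the naming rule.

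tatn-1 (WBGene00009628, chromosome X), the tyrosine aminotransferase that begins tyrosine breakdown, had the reverse pattern. In N2 it fell from 20.6, 28.9 and 46.4 to 14.3, 10.6 and 13.2 CPM. In the mutants it rose from 23.8, 32.8 and 45.5 to 99.8, 72.8 and 68.9 CPM. Day 0 levels spread over the same range in both genotypes, and at day 5 they were far apart. The change was -1.33 ± 0.30 in N2 and 1.25 ± 0.30 in the mutants, and the difference 2.58 ± 0.42 (adjusted p = 0.0262). Leaving out single libraries ended this call in 6 of 12 fits (adjusted p up to 0.0865), but leaving out the 3 day 0 libraries together did not (adjusted p = 0.025).

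str-163, a member of a chemoreceptor family (chromosome IV), had 0.336, 0.311 and 0.359 CPM in N2 at day 0 and 0.0425, 0.117 and 0.105 CPM at day 5. The mutants had 0.449, 0.689 and 0.715 and then 6.9, 10.7 and 4.23 CPM. The mutants were above N2 at both ages and by far more at day 5. The difference was 5.38 ± 0.62 (adjusted p = 0.00517), resting on 9 counts in the 3 N2 libraries at day 5. Smaller opposite changes were found in cex-1, which encodes the calcium-binding protein calexcitin, with -0.67 ± 0.24 in N2 and 1.37 ± 0.24 in the mutants, and in the profilin gene pfn-3, with -0.59 ± 0.20 and 1.03 ± 0.20. lfi-1, named for an interaction with the spindle protein LIN-5, changed by -0.72 ± 0.18 and 0.78 ± 0.18. pfn-3 and lfi-1 overlap other annotated genes. So do other genes named in this report, among them eff-1, pqn-36, clec-82, gst-4, ttr-14, ttr-32, haly-1 and acn-1. With the strand not known here, their reads may be shared.

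Several families of secreted peptides and proteins held genes that rose in the mutants alone or more steeply there. Of 19 tested epidermal antimicrobial peptide genes of the nlp-29 and caenacin groups, 2 were called higher and 0 lower, against 0.453% and 0.101% of all genes, and the list's median difference was 0.61. DESeq2 called 6 higher and the day 0 block 7, with none lower. nlp-34 (chromosome V) had 1.66, 1.34 and 4.52 CPM at day 0 and 5.65, 7.38 and 6.65 CPM at day 5 in N2. Mutants went from 1.35, 2.08 and 4.83 to 143, 198 and 83.2 CPM. Replicate 3 was the highest at day 0 in both genotypes, and no library outside the mutants at day 5 reached 10 CPM. The difference was 4.34 ± 0.72 (adjusted p = 0.0265).

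The caenacin gene cnc-6 (chromosome III) rose from 0.569, 0.389 and 0.479 to 4.2, 7.83 and 6.23 CPM in N2. The mutants rose from 0.692, 0.15 and 1.21 to 128, 213 and 77.7 CPM. Both genotypes rose, and at day 5 the 3 mutant libraries lay far above those of N2. The difference of 4.19 ± 0.81 (adjusted p = 0.0455) was kept in 2 of 12 fits with 1 library left out, with an adjusted p of up to 0.128. Neighbours in function such as nlp-29 (1.65 ± 0.46, adjusted p = 0.149), cnc-7 (2.84 ± 0.77, 0.139) and nlp-30 (2.12 ± 0.52, 0.108) did not pass. The list's summed level was 167, 266 and 210 CPM in N2 and 984, 1150 and 583 CPM in the mutants at day 5.

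Transthyretin-like genes encode small secreted proteins. Of 56 tested, 5 were called higher and 0 lower, against 0.453% and 0.101% of all genes, and their median difference was 0.29. DESeq2 called 9 higher and the day 0 block 11, with none lower. ttr-32 (chromosome III) had 8.28, 13 and 11 and 8.62, 12.1 and 7.44 CPM in N2 at day 0 and day 5. Mutant levels were 13.7, 16.7 and 15.2 and 97.6, 134 and 47.3 CPM. N2 libraries overlapped between the ages, while the mutants at day 5 lay above all other libraries. The difference was 2.80 ± 0.45 (adjusted p = 0.0252).

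The other 4 did not all follow this course. ttr-18 and ttr-33, the latter outside the naming rule, rose in the mutants alone, by 1.72 ± 0.30 and 1.91 ± 0.26, against -0.49 ± 0.30 and 0.06 ± 0.26 in N2. ttr-45 rose in both genotypes, by 1.01 ± 0.12 in N2 and 1.97 ± 0.12 in the mutants. ttr-14 fell in N2, with a change of -2.49 ± 0.37, and did not pass in the mutants, at 0.11 ± 0.35. The 5 genes, chosen by the test of the difference, shared its sign. ttr-18 and ttr-33 were in the same age class as ttr-32, while ttr-45 and ttr-14 were in others. With 1 library left out the call was kept in 2 of 12 fits for ttr-14 and in 3 each for ttr-18, ttr-33 and ttr-45.

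Of 25 tested genes of the fip and fipr peptide family, 2 were called higher and 0 lower, and these are neighbours on chromosome X, 1386 bases apart. The share of all genes called was 0.453% higher and 0.101% lower, and DESeq2 and the day 0 block each called 2 of the family higher and 1 lower. fip-5 had 3.36, 4.13 and 5.9 and 8.11, 6.36 and 6.07 CPM in N2 and 3.83, 6.71 and 6.89 and 49.2, 54 and 30 CPM in the mutants, at day 0 and day 5 in each. fip-5 was called with age in the mutants alone, although every N2 library at day 5 lay above those at day 0 (change 0.62 ± 0.30, adjusted p = 0.0973). Its difference was 2.32 ± 0.42 (adjusted p = 0.0336). With 1 library left out, the calls of fip-5 and fipr-21 were each kept in 3 of 12 fits. fipr-21 fell in N2 from 52.6, 105 and 86.5 to 18.4, 20.9 and 17.1 CPM, and in the mutants went from 81.8, 144 and 120 to 175, 217 and 96.4 CPM (difference 2.61 ± 0.44, adjusted p = 0.0265). At day 5 both stood higher in every mutant library than in any N2 library. The family's median difference was -0.18, of the opposite sign. Over the alternatives that median ran from -0.41 to 0.49 and changed sign in 5 of them.

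Of 133 tested C-type lectin genes, whose products bind sugars and many of which respond to infection, 3 were called higher and 0 lower, against 0.453% and 0.101% of all genes. Other tests called members in both directions, DESeq2 10 higher and 8 lower, limma on rlog values 4 and 2 and the day 0 block 13 and 8. Their shares of all genes were 2.09% and 1.16%, 0.68% and 0.286%, and 3.87% and 0.966% in that order. At an unadjusted p below 0.05 there were 20 higher and 12 lower. clec-82 (chromosome IV) was at 0.569, 0.798 and 1.08 CPM in N2 and 0.299, 0.3 and 0.358 CPM in the mutants at day 0. At day 5 it was at 0.255, 0.469 and 0.733 and 3.05, 2.28 and 4.08 CPM. The mutants were below N2 at day 0 and above it at day 5, without overlap at either age. The difference was 4.07 ± 0.56 (adjusted p = 0.0107). clec-232 rose by 1.40 ± 0.39 in N2 and 4.92 ± 0.40 in the mutants, and clec-147 by 0.50 ± 0.16 and 1.67 ± 0.16. The difference of clec-147, 1.18 ± 0.23 (adjusted p = 0.0455), was called in 1 of 12 fits with 1 library left out. The whole family's median was 0.32.

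The ion exchanger gene nhx-6 rose in both genotypes and far more in the mutants. nhx-6 (WBGene00003734, chromosome II, 1670829 to 1674401), a sodium-proton exchanger gene, had 0.103, 0.0973 and 0.18 CPM in N2 and 0.187, 0.0749 and 0.179 CPM in the mutants at day 0. At day 5 it had 0.382, 0.195 and 0.471 CPM in N2 and 15.1, 13.8 and 14.5 CPM in the mutants. Only the mutant libraries at day 5 exceeded 1 CPM, and they agreed closely with each other. The difference was 5.29 ± 0.63 (adjusted p = 0.00578) and was called in every alternative tried. The rise in N2, 1.38 ± 0.45 (adjusted p = 0.0217), rests on 15 counts over 3 libraries at day 0 and 28 at day 5. Mutant libraries at day 0 held 19 counts, so the size of the difference is loosely set.

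acd-1, an acid-sensitive channel gene of glial cells, rose by 1.26 ± 0.30 in N2 and 3.88 ± 0.32 in the mutants, with 2.93, 3.26 and 3.09 CPM in N2 and 15.1, 9.34 and 21.5 CPM in the mutants at day 5. ugt-29, which encodes an enzyme that joins sugars to small molecules, rose by 1.51 ± 0.27 and 3.48 ± 0.29. Its difference of 1.97 ± 0.38 (adjusted p = 0.0455) was called in 1 of 12 fits with 1 library left out. ugt-29 was the 1 call among 63 tested genes of its family, against 0.555% of all genes, and the family's median difference was 0.02. At an unadjusted p below 0.05 the family had 6 higher and 7 lower, DESeq2 called 2 higher and 4 lower, and the day 0 block called 3 in each direction. Over all genes DESeq2 called 2.09% higher and 1.16% lower, and the day 0 block 3.87% and 0.966%. The efflux pump gene mrp-2 (difference 1.72 ± 0.25) and the astacin protease gene nas-11 (1.84 ± 0.32) also rose more in the mutants, and were chosen after their values were seen. nas-11 ended at 158, 176 and 140 CPM in N2 and 724, 658 and 427 CPM in the mutants.

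The cell fusion gene eff-1 rose in the mutants with no call in N2. eff-1 (WBGene00001159, chromosome II), whose product fuses epidermal and other cells and takes part in neuron repair, had 2.28, 2.53 and 2.72 and 2.17, 2.23 and 1.68 CPM in N2. The mutants had 2.04, 2.59 and 2.33 CPM at day 0 and 13.6, 10.7 and 8.19 CPM at day 5. The N2 libraries at day 5 lay just below those at day 0, and the mutants at day 5 lay above all others. The difference was 2.52 ± 0.34 (adjusted p = 0.0107) and was lost without N2 day 5 replicate 1 or 3, with an adjusted p of up to 0.0553. lon-1 and sma-5, both known for setting body size, differed by 1.43 ± 0.26 and 1.53 ± 0.24 and were chosen after their values were seen.

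pqn-36, a gene with a glutamine- and asparagine-rich domain (chromosome X), had 3.91, 3.54 and 5.72 and 4.2, 4.88 and 4.35 CPM in N2 and 3.36, 4.56 and 4.65 and 30.1, 22.1 and 28.6 CPM in the mutants. N2 was not called with age (0.03 ± 0.23), and the mutants rose by 2.69 ± 0.24 (difference 2.65 ± 0.33, adjusted p = 0.0073). tag-278, of no stated function here, rose in the mutants by 1.77 ± 0.35 with -0.69 ± 0.35 in N2. The difference was 2.46 ± 0.49 (adjusted p = 0.0497), a call kept in 3 of 12 fits with 1 library left out. This gene overlaps tsp-17. It lies 12114 bases from C02F12.5 on chromosome X, a gene whose difference had the opposite sign.

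The genes that fell in N2 with no call in the mutants included an enzyme of amino acid breakdown and a filament gene. haly-1, the histidine ammonia-lyase that begins histidine breakdown (chromosome X), fell in N2 from 37.1, 36.9 and 54.5 to 15.6, 17.6 and 15.2 CPM. The mutants had 33.5, 57.1 and 56.6 CPM at day 0 and 79.2, 73 and 53.5 CPM at day 5. Only N2 at day 5 lay below the range of the day 0 libraries. The difference was 1.89 ± 0.32 (adjusted p = 0.0267).

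ifb-1, an intermediate filament gene of the epidermis chosen after its values were seen, fell from 190, 270 and 281 to 84.2, 94.7 and 83.1 CPM in N2. Mutants had 177, 332 and 259 CPM at day 0 and 367, 286 and 243 CPM at day 5. Replicate 1 was the lowest at day 0 in both genotypes. The difference was 1.72 ± 0.32 (adjusted p = 0.0386), a call kept in 3 of 12 fits with 1 library left out. acn-1, an angiotensin-converting-enzyme-like gene needed for molting, differed by 1.88 ± 0.37 (adjusted p = 0.0488), a call kept in 1 of 12 fits with 1 library left out. acn-1 was the 1 call by edgeR among 19 tested molting factors, against 0.453% of all genes called higher. DESeq2 and the day 0 block called 2 of that list each, as higher. The changes of drd-10 were -2.55 ± 0.40 in N2 and 0.62 ± 0.37 in the mutants, those of tag-273 -1.43 ± 0.21 and 0.51 ± 0.20, and those of the MATH domain gene math-41 -1.25 ± 0.19 and 0.36 ± 0.18. For the defensin-like gene abf-4, chosen after its values were seen, the counts over 3 libraries were 39 and 1 in N2 and 108 and 150 in the mutants at day 0 and day 5.

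Cuticle collagens fell with age in both genotypes, 115 of 148 tested in N2 and 106 in the mutants. The test of the difference called 2 higher and 0 lower, against 0.453% and 0.101% of all genes. DESeq2 called 11 higher and 0 lower, limma on log2 CPM 6 and 0, limma on rlog values 2 and 0 and the day 0 block 13 and 2. The larger, col-140 (chromosome V), fell from 3150, 3320 and 4380 CPM to 332, 277 and 272 CPM in N2. In the mutants it fell from 2780, 3350 and 3780 CPM to 1710, 700 and 954 CPM. Every mutant library lay above every N2 library at day 5. The difference was 2.06 ± 0.39 (adjusted p = 0.0405), and for col-34, which fell in N2 alone, it was 1.49 ± 0.29 (adjusted p = 0.0488). Among the collagens 27 had a higher and 2 a lower difference at an unadjusted p below 0.05, against 1549 and 842 of all 16764 genes, and the list's median of 0.81 was 0.51 without the 3 day 0 libraries. With 1 library left out, col-140 kept its call in 4 of 12 fits (adjusted p up to 0.141) and col-34 in 3 (up to 0.148).

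Few genes fell more in the mutants than in N2. asp-14, an aspartyl protease gene (chromosome X), fell from 192, 267 and 151 to 50.3, 50.9 and 53 CPM in N2. In the mutants it fell from 94.8, 160 and 89.7 to 7.73, 5.41 and 8.07 CPM. The genotypes overlapped at day 0, and at day 5 all mutant libraries lay far below N2. The difference was -2.04 ± 0.35 (adjusted p = 0.0267). sdz-24 also fell in both, with changes of -1.59 ± 0.26 in N2 and -3.69 ± 0.28 in the mutants.

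gst-4 (chromosome IV), a glutathione S-transferase gene used as a reporter of the oxidative stress factor SKN-1, fell in the mutants alone. N2 had 27, 21.6 and 23 and 23.4, 23.4 and 27.4 CPM, with overlap between the ages. The mutants had 33.6, 36.9 and 33.7 CPM at day 0, above all N2 libraries, and 15.4, 12.2 and 16.5 CPM at day 5, below all of them. The difference was -1.30 ± 0.22 (adjusted p = 0.0265). It was the 1 call among 45 tested glutathione S-transferase genes, against 0.101% of all genes called lower, and the median of that list was 0.07.

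Lists of muscle, pharynx and neuron genes had positive medians. No member was called by edgeR, and members were called as higher by DESeq2 and with the day 0 block. Of 38 body wall muscle genes 0 passed, 36 had a difference above 0 (9123 of all 16764 genes did) and 25 were higher at an unadjusted p below 0.05 (1549 of all genes were). DESeq2 called 5 of them higher, limma on log2 CPM 2, limma on rlog values 0 and the day 0 block 18, against 3.87% of all genes with that block. The median difference was 0.83, from a median change of -2.41 in N2 and -1.5 in the mutants. The smallest adjusted p was that of tni-3, a troponin I gene, with 1.21 ± 0.26 (adjusted p = 0.0659). The summed muscle level at day 5 was 5380, 4910 and 4880 CPM in N2 and 7880, 7100 and 7430 CPM in the mutants, without overlap. At day 0 it was 21800, 32000 and 34600 CPM and 17500, 32300 and 23400 CPM, lowest in replicate 1 of each genotype. Without the 3 day 0 libraries the list's median difference was 0.62.

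Of 21 tested pharynx genes 0 passed, 19 were above 0 and the median difference was 1.17 (0.74 without the 3 day 0 libraries). DESeq2 called 3 higher, the day 0 block 4 and limma none, and 5 were higher at an unadjusted p below 0.05. The pharyngeal myosin gene myo-1 had the smallest adjusted p, with 2.04 ± 0.51 (adjusted p = 0.108). Of 39 neuronal genes 0 passed, 36 were above 0 and the median was 0.62, from -0.64 in N2 and 0.19 in the mutants. unc-13, a synaptic vesicle priming gene, had 1.36 ± 0.31 (adjusted p = 0.0851). Of the neuronal genes 13 were higher at an unadjusted p below 0.05, and DESeq2 called 3 higher, limma on log2 CPM 1 and the day 0 block 5. The neuronal median was 0.4 without the 3 day 0 libraries.

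Germline and cell cycle lists had medians below 0 and sperm lists medians above 0, with no called member in either direction by edgeR. The 32 germline and meiosis genes had a median of -0.32, with 4 above 0 and 6 lower at an unadjusted p below 0.05, and 37 DNA replication and cell cycle genes had a median of -0.17, with 3 lower at an unadjusted p below 0.05 and 1 called lower by DESeq2. The 29 major sperm protein genes fell in both genotypes by a median of -8.01 and -7.02. Their median difference was 0.97, and none had an unadjusted p below 0.05. Their summed level at day 5 was 10.3, 7.75 and 5.24 CPM in N2 and 22.3, 8.04 and 10.3 CPM in the mutants, with overlap. The 63 other sperm genes had a median difference of 0.58, with 3 higher and 1 lower at an unadjusted p below 0.05. DESeq2 called none of them, and the day 0 block called 1 higher. Without the 3 day 0 libraries the median difference was 0.61 for major sperm protein genes and 0.17 for other sperm genes. Respiratory chain genes (37) had a median of 0.01 and cytosolic ribosomal protein genes (82) one of 0.14. In all, 12 of the 53 lists held a called member, and 23 of the 93 genes were in a list. The share of all tested genes that lie in a list was not computed, so nothing is read from these counts.

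**Figure D5:**
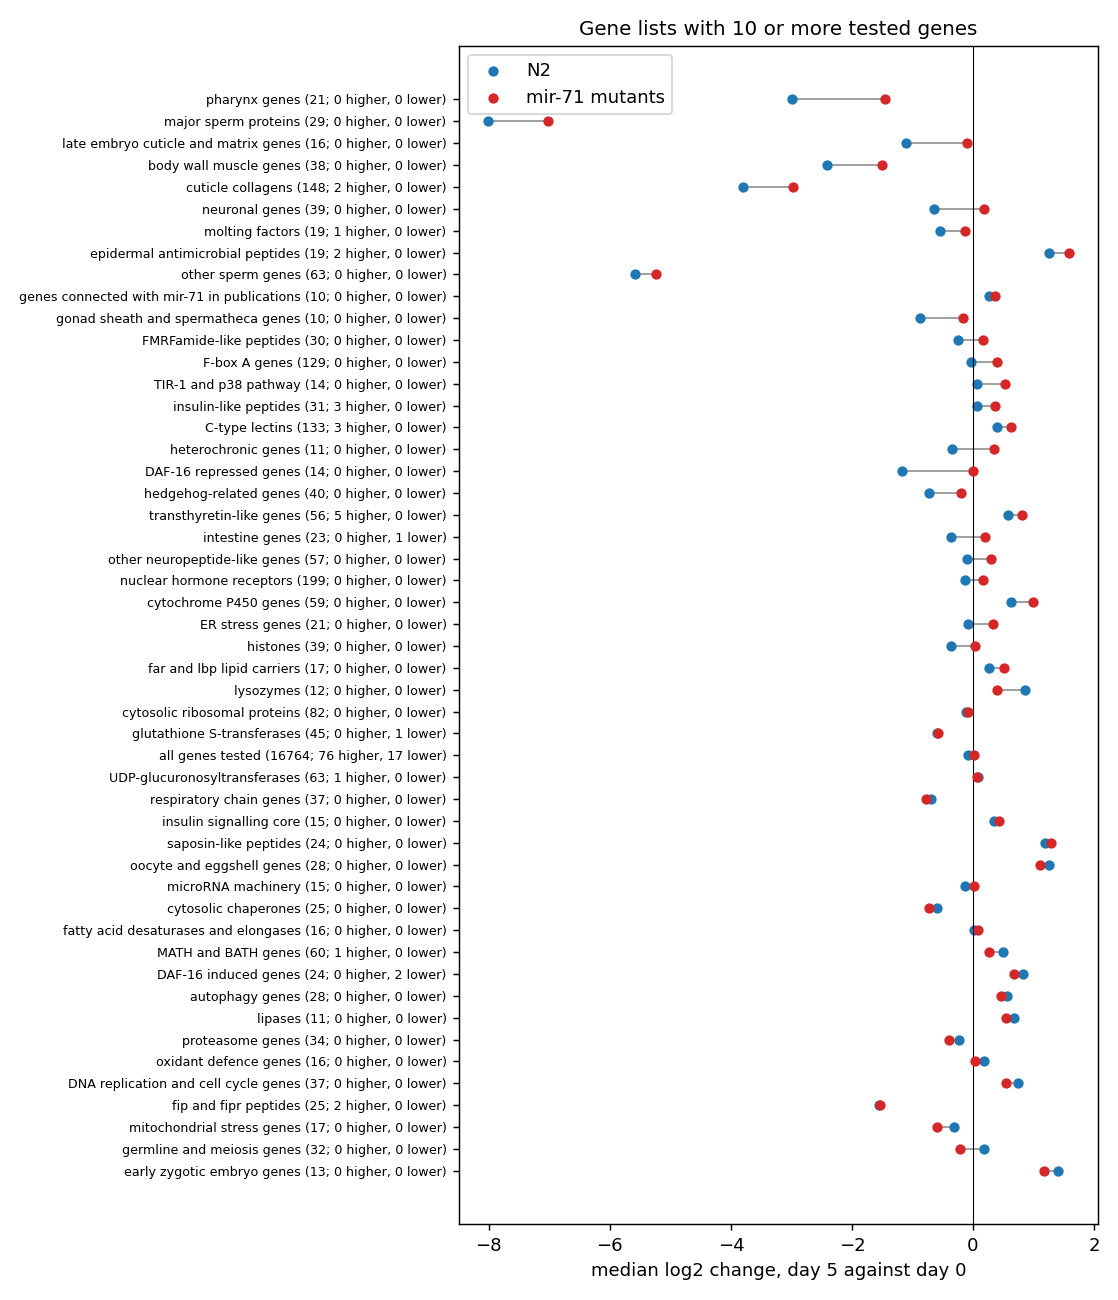
Median log2 change from day 0 to day 5 in N2 (blue) and mir-71 mutants (red) for gene lists with at least 10 tested genes, ordered by the median difference. Labels give the number tested and the number called higher and lower in the mutants. Pharynx genes, with medians of -2.99 and -1.45, stand at the top, and the row of all genes tested has medians of -0.09 and 0.01.

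Genes that publications connect with mir-71 were not among the 93. DESeq2 called 1 of them, hbl-1 (adjusted p = 0.0208), and the day 0 block called 2, hbl-1 (adjusted p = 0.0209) and tir-1 (0.0453). The heterochronic transcription factor gene hbl-1 came closest, with 2.72, 3.13 and 3.92 and 6.16, 5.43 and 4.97 CPM in N2 and 1.35, 1.81 and 2.24 and 7.43, 6.32 and 10.2 CPM in the mutants. Every mutant library was below N2 at day 0 and above it at day 5, and the difference was 1.40 ± 0.37 (adjusted p = 0.131). The Argonaute gene alg-1 (chromosome X) had 35.3, 45.9 and 47.6 and 32.8, 33.3 and 28.7 CPM in N2 and 22.6, 53.4 and 36.1 and 45.5, 41.9 and 60.7 CPM in the mutants, a difference of 0.84 ± 0.36 (adjusted p = 0.324). The related alg-2 had 0.45 ± 0.27 (0.474). tir-1, an adaptor of the p38 immune pathway and a neuronal target in earlier work, had 0.72 ± 0.35 (0.373) and nsy-1, a kinase downstream of it, 0.51 ± 0.30 (0.479).

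The remaining genes of that kind did not pass either. The differences were 0.51 ± 0.31 for the forkhead gene pha-4, 0.52 ± 0.36 for the secretion gene unc-31, -0.48 ± 0.74 for the period-like gene lin-42, -0.10 ± 0.18 for the phosphatase gene cdc-25.1 and 0.00 ± 0.33 for the kinase gene pdk-1. Their adjusted p values ran from 0.479 to 1. In simulated counts with libraries drawn independently, the same test recovered 15% of differences of log2 1 and 62% of those of log2 2. A gene that was not called is therefore not shown to change alike in both genotypes.

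The 93 genes were spread over all nuclear chromosomes. X held 25 (26.9%) of them, against 13.9% of the genes tested, and I held 4 (4.3%) against 15.9%. V held 22, IV 18, II 17 and III 7. Of 810 tested genes within 2 Mb (mega bases) of mir-71, 2 were called, against 0.555% of all genes. They were F30A10.13 at 98543 bases from mir-71 and D2030.2 at 1805687 bases. Both were chosen for their position after the calls were known. F30A10.13 had 9.54, 7.38 and 8.8 and 14.7, 18.2 and 15.3 CPM in N2. The mutants had 12.5, 6.41 and 8.5 and 3.13, 1.36 and 4.16 CPM, a difference of -2.58 ± 0.50 (adjusted p = 0.0455). That call was kept in 2 of 12 fits with 1 library left out, with an adjusted p of up to 0.122. Of the 93 genes 37 overlap another annotated gene, and 16 had a highest group mean below 5 CPM. The same shares over all genes tested were not computed, so neither count is read as particular to the 93.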

How the data were processed

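Poly(A) RNA of whole adult worms was measured in 12 libraries, 3 in each of 4 groups set by the labels' genotype and age. The deposited table held raw read counts per gene (46726 genes, 20054 at 0 in every library). The authors also deposited rlog values, regularized log2 counts, used as an alternative. Per the submitters' processing notes STAR 2.4.0h, DESeq2 and the build WBcel235 were used. The read counter and strand do not appear in the sources used here.

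From the counts, 16764 genes passed edgeR's filterByExpr. One model with 4 group means was fitted with edgeR 4.0.16 in R 4.3.3 (TMM factors 0.868 to 1.17, quasi-likelihood F-test, 8 residual degrees of freedom, common dispersion 0.0714). The test was of the mutant change minus the N2 change, with Benjamini-Hochberg adjustment over all genes and a threshold of 0.05. A standard error is the absolute log2 difference over the square root of F. A gene was put in an age class by whether it passed 0.05 for age in each genotype. Totals were 20.5 to 65.2 M counts, and the floor of 3 counts covers counting error only.

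Named genes were the 5 largest differences per class and direction among called genes with a highest group mean of at least 5 CPM and a symbol of letters and a number, at most 2 per symbol prefix. Added were up to 4 called members per list and genes that publications connect with mir-71, whatever their level. It gave 38 called genes. The members, the lists and most tests were chosen with earlier results of these data known. Lists were matched by symbol and are described by counts and medians, with no set test. The series' text calls the replicates biological. Replicate counts differed beyond counting error (chi-square per gene 22.8 to 308). Same-numbered libraries correlated over 0.1 in 9 of 18 pairs (-0.21 to 0.76), and at day 0 in all 3 pairs of N2 and mutants (0.28 to 0.76). The labels do not say what a number marks, so the test had no block, and both blocks below are alternatives. The test was checked on simulated counts of 16764 genes with 200 changed, where 2 of 79 calls were false. The changed genes all had an average log2 CPM above 0. Simulated libraries varied independently, without the deviations that day 0 libraries of the same number shared. The simulation therefore does not give the error rate or the power in the real data. Alternatives were RLE and upper-quartile factors, TMM factors without sperm, oocyte, yolk and collagen genes, no filter, a filter of 1 CPM in 3 libraries, DESeq2 1.42.0, limma 3.58.1 on log2 CPM and on rlog values, a replicate block, a replicate block among day 0 libraries (chosen after seeing the data) and libraries left out.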

Additional observations from a re-analysis of the deposited data

Results flagged for a closer look

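The 38 named genes below were picked out because the change with age differed between the genotypes by the test of the difference itself. Each value is the log2 change in mir-71 mutants minus that in N2. Among genes called with age only in the mutants, as a rise, these were ins-8 (7.02), clec-82 (4.07), ttr-32 (2.8), ins-4 (2.76), pqn-36 (2.65), eff-1 (2.52), tag-278 (2.46), fip-5 (2.32) and ttr-18 (2.21). The gene that fell in the mutants alone was gst-4 (-1.3). The gene that rose in N2 alone was mtl-2 (-2.37). Genes that fell in N2 alone were drd-10 (3.17), fipr-21 (2.61), ttr-14 (2.6), tag-273 (1.94), haly-1 (1.89), acn-1 (1.88), math-41 (1.61) and col-34 (1.49). Opposite directions were found for str-163 (5.38), tatn-1 (2.58), cex-1 (2.04), hex-1 (-1.95), pfn-3 (1.62) and lfi-1 (1.5). Both genotypes rose, unequally, for nhx-6 (5.29), mtl-1 (-5.18), nlp-34 (4.34), cnc-6 (4.19), clec-232 (3.52), acd-1 (2.62), ins-7 (2.52), ugt-29 (1.97), clec-147 (1.18) and ttr-45 (0.96). Both fell, unequally, for sdz-24 (-2.1), col-140 (2.06) and asp-14 (-2.04). The value of ins-8 rests on 2 counts in N2 at day 5 and depends on the prior count. Leaving out 1 library ended the call of 84 of the 93 genes in at least 1 of 12 fits, by adjusted p values of up to 0.164.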

How the results depend on the processing

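Against 76 genes higher and 17 lower, 62 of them called in 1 genotype only or in opposite directions and 23 in a gene list, the counts moved with the tool, the filter, the replicate blocks and single libraries. DESeq2 gave 350 and 195 (375 and 102), limma on log2 CPM 130 and 43 (118 and 42) and limma on rlog values 114 and 48 (110 and 36). Without a filter there were 193 and 52 (161 and 69), over 26672 genes. The share of higher calls was 81.7%, 64.2% with DESeq2 and 70.4% with rlog values, where the median of all genes was -0.01 and 0. RLE factors gave 61 and 22, upper-quartile factors 77 and 17, TMM factors without the sperm, oocyte, yolk and collagen genes 76 and 20, and the CPM filter 90 and 19. With the replicate block there were 179 and 54 (147 and 59) and all 93 genes were called. With the replicate block among day 0 libraries alone, chosen after seeing the data, there were 649 and 162 (514 and 146), again with all 93. At day 0 each of the 6 libraries correlated best with its own number in the other genotype, and over all groups 1 of 12 libraries did so in every other group. No label says that a number marks a shared culture or day. The cause of these shifts was not tested.

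With 1 library left out, higher calls ranged from 8 to 367, lower calls from 2 to 93, calls in 1 genotype or in opposite directions from 5 to 339, genes of the 93 still called from 10 to 93 and list members called from 3 to 85. Without both day 0 libraries numbered 1 there were 60 and 8, and 47 of the 93 were still called. Without the 3 day 0 libraries that stood apart there were 10 and 6 (10 and 3), and 9 of the 93 were still called. Of the 93, 90 were called by DESeq2, 92 on rlog values and 4, hex-1, ins-7, mtl-1 and nhx-6, in every alternative. The direction of all 93 held in each alternative that gave the gene an adjusted p. DESeq2 gave none for F31A9.2, abf-4 and ins-8. The search for promoter motifs was not run, for lack of promoter sequences here. With 3 libraries per group and these depths, small differences and genes below 5 CPM are poorly resolved.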
